A study of Mus musculus with 6 samples.

Results

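Neurofilaments are the intermediate filaments of axons, and the 10 genes described here encode their subunits and other proteins of the axonal cytoskeleton: Nefl, Nefm, Nefh, Ina and Prph (filament subunits), Map2, Mapt and Map1b (microtubule-associated proteins), and Gap43 and Stmn2 (proteins of growing axons). They were chosen by gene symbol, with earlier results of these data known. All 10 were found among the 37475 genes of the deposited table, each on 1 row. Their RNA was measured by RNA sequencing of polyadenylated RNA from the spinal cord of wild-type mice on day 3 after a contusion (a bruise made with an impactor) of segment T10. Once injured, 3 mice received syringin, a plant phenylpropanoid glucoside, at 50 mg/kg by daily intraperitoneal injection for 3 days, and 3 received phosphate-buffered saline (PBS), the vehicle, on the same schedule. Every animal was injured, and uninjured cord was not analysed here. The age and sex of the mice, and how far from the impact the tissue reached, are not given in the sources used here.

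A neurofilament is a copolymer of a light (Nefl), a medium (Nefm) and a heavy (Nefh) subunit. In the central nervous system alpha-internexin (Ina) joins these subunits, and in peripheral and motor neurons peripherin (Prph) does. The polymers fill large myelinated axons and set their calibre, and neurofilament protein released into blood and cerebrospinal fluid is a widely used marker of axon damage, including damage to the spinal cord. Microtubules in the same neurons are bound by MAP2, mostly in dendrites and cell bodies, by tau (Mapt), mostly in axons, and by MAP1B, which is abundant in growing axons. GAP-43 is a growth cone membrane protein and stathmin-2 (Stmn2) a tubulin-binding protein, both known for their induction in neurons that regrow an axon.

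Several of these genes were lower after syringin. Nefh, Nefl, Ina, Nefm and Map2 fell, with changes of -58.9%, -51.9%, -48.3%, -45.7% and -38.5%, and for each of these genes every syringin library lay below every PBS library. None of the 10 genes rose. Mapt, Map1b, Prph, Gap43 and Stmn2 did not pass the test, and their groups overlapped. A gene passed at an adjusted p under 0.05 in edgeR's quasi-likelihood test over 22114 genes (Benjamini-Hochberg adjustment, two-sided), so 5 of 10 genes were called lower and 0 of 10 higher, beside 3.39% and 1.62% of all genes tested (5.01% in either direction). At an unadjusted p under 0.05 the same 5 of 10 were lower, beside 12.1% of all genes, and DESeq2 also called these 5, beside 8.09% called lower. Among the 4864 genes averaging at least 50 CPM (scaled counts relative to library size), a range chosen after the values were seen that holds all 10, 6.23% were called lower. The 5 genes whose groups did not overlap stood beside 15.3% of all genes tested that were lower without overlap and 14.7% that were higher without overlap. The median log2 fold change of the 10 genes was -0.58, against 0.01 over all genes tested. The 10 genes were chosen with earlier results of these data known, so these shares and medians are a description and not a test. The calls depended on single libraries: without syringin library 2, syringin library 3, PBS library 1 or PBS library 3, edgeR called 3, 1, 1 and 0 of the 10 genes, beside 1.42%, 0.942%, 0.954% and 0% of all genes called lower. Without syringin library 1 or PBS library 2 it called 6 and 4 of the 10, beside 4.97% and 0.723%. Without PBS library 3, each of the 5 kept an edgeR p under 0.05 before adjustment, and DESeq2 called the same 5, beside 4.04% of all genes called lower by it.

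**Figure D1:**
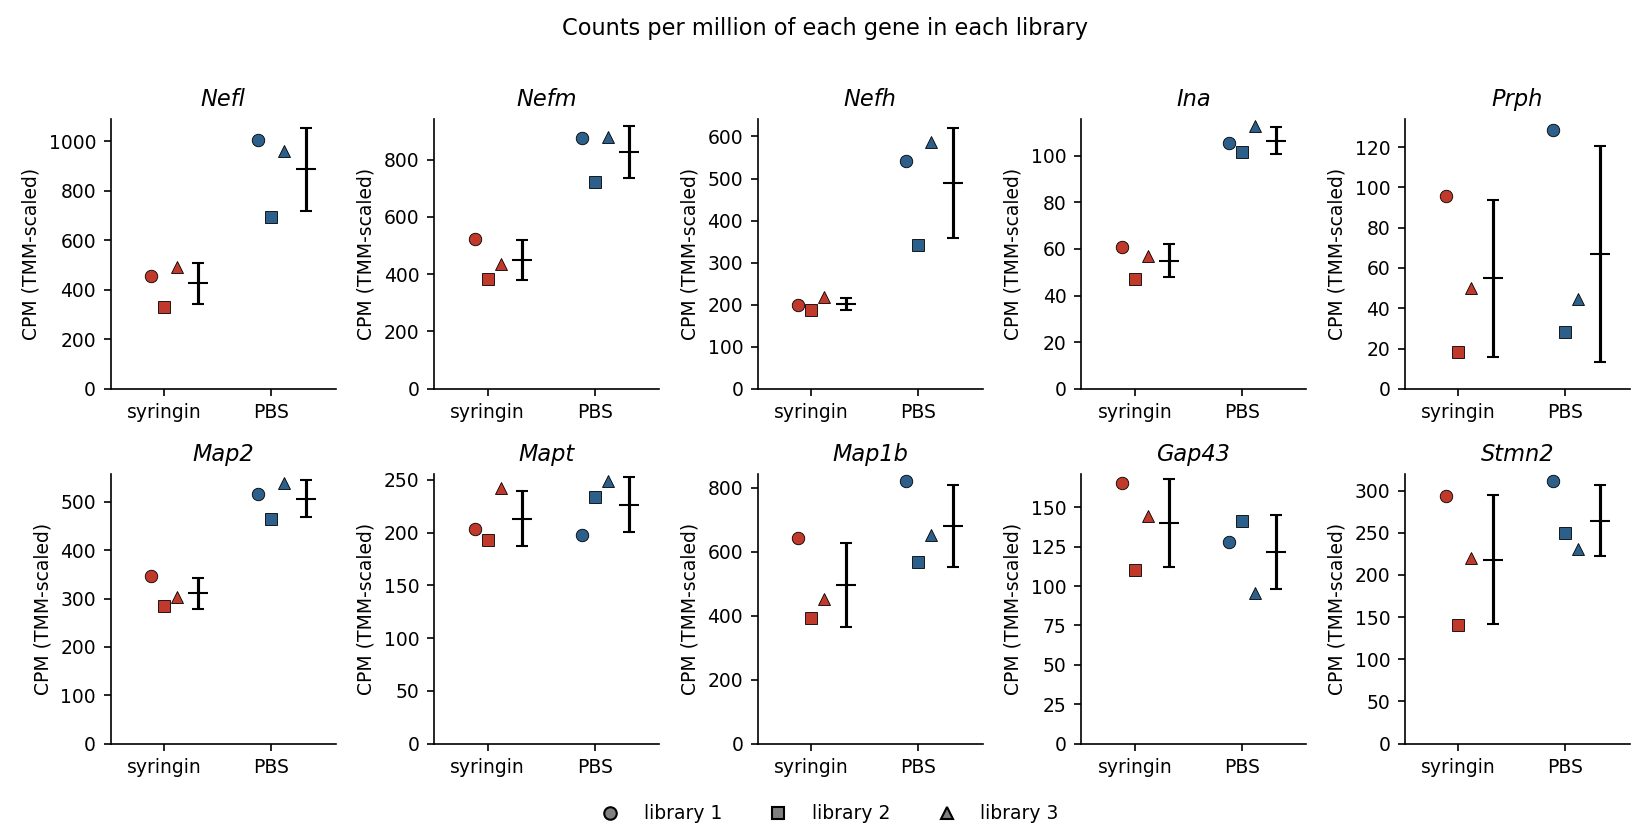
Level in CPM (counts scaled to library size by TMM, y axis from 0) of the 10 genes in the 3 syringin and 3 PBS libraries; symbols mark the library number, and bars give the mean ± SD. Nefl, Nefm, Nefh, Ina and Map2 have all syringin points below all PBS points, and in the other 5 panels the groups overlap.

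Because tissue was measured in bulk, fewer cells of a type and less RNA per cell cannot be told apart in any value below. The libraries held 65579117 to 78843034 counts in the syringin group and 66771594 to 74495190 in the PBS group, and the 10 genes took 0.203% to 0.307% of them in the syringin group and 0.357% to 0.469% in the PBS group. Markers of central myelin, which define the tissue as cord, were abundant in every library: 10 oligodendrocyte genes summed to 19149 to 26155 CPM after syringin and 19994 to 21916 CPM after PBS. Some libraries also held transcripts of sensory ganglion neurons, which lie outside the cord: 15 markers summed to 306, 29.5 and 142 CPM in syringin libraries 1, 2 and 3, and to 346, 78.0 and 57.8 CPM in PBS libraries 1, 2 and 3. Syringin libraries 1 and 3 and PBS library 1 thus stood apart from the other 3, and the samples were left in their labelled groups. In the other 3, Sncg, Calca, F2rl2 and Kcns3 made up most of the sum. In PBS library 2 they had 32.2, 21.8, 11.2 and 9.39 CPM, against 0.22 CPM for Scn10a. How much of these low sums came from ganglion neurons was not tested. The labels call the 3 libraries of a group biological replicates and name no animals or batches.

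Nefl, the light subunit on which the polymer is built, had 455, 333 and 491 CPM in syringin libraries 1, 2 and 3, against 1005, 693 and 963 CPM in PBS libraries 1, 2 and 3. The highest syringin value was well under the lowest PBS value, and library 2 was the lowest of both groups. Nefl averaged 426 ± 83.0 CPM with syringin and 887 ± 169 CPM with PBS (mean ± SD, n = 3 each), a log2 fold change of -1.06 ± 0.19 (SE; edgeR adjusted p = 0.0263). Nefm, the medium subunit, had 523, 384 and 437 CPM after syringin and 876, 722 and 879 CPM after PBS. Again no syringin library reached the PBS range, and the log2 fold change was -0.88 ± 0.14 (edgeR adjusted p = 0.0207). Nefl and Nefm are neighbours on chromosome 14. In the GENCODE M21 annotation of GRCm38, Nefl spans chr14:68083863-68089095 on the plus strand, inside the span of Nefm, chr14:68082590-68124846 on the minus strand. There a Nefm exon covers 1108 of the 3380 exonic bases of Nefl on the opposite strand. The library kit keeps strand, but no source used here says whether counting made use of it, so reads from that stretch may be shared between both genes.

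Nefh, the heavy subunit with the long phosphorylated tail that projects from the filament, showed the steepest difference of the 10. Nefh had 199, 188 and 218 CPM in the syringin libraries and 541, 342 and 588 CPM in the PBS libraries. The syringin values lay close together (coefficient of variation 7.58%), while PBS library 2 was clearly below the other PBS libraries (26.6%). The log2 fold change of Nefh was -1.28 ± 0.19 (edgeR adjusted p = 0.0189), or 0.411 of the PBS level. Leaving out PBS library 2, the lowest of its group, took the value to -1.48, and leaving out any other single library kept it between -1.35 and -1.13.

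Ina, alpha-internexin, had 61.0, 47.0 and 57.1 CPM after syringin and 105, 102 and 113 CPM after PBS. Values varied little within either group, and Ina had the smallest p of the 10 genes, 52nd among the 22114 tested. Its log2 fold change was -0.95 ± 0.11 (edgeR adjusted p = 0.0114). Ina was also the gene whose call was lost in only 1 of the 6 fits with a library left out by edgeR, the fit without PBS library 3 (adjusted p = 0.0959).

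Prph, peripherin, was the filament gene that did not pass. Prph had 96.0, 18.4 and 50.1 CPM in syringin libraries 1, 2 and 3, against 128, 28.4 and 44.4 CPM in PBS libraries 1, 2 and 3. The groups overlapped over nearly the whole range, with the highest of the 6 libraries 6.97 times the lowest, the widest ratio among the 10 genes. The log2 fold change of -0.29 ± 0.77 did not pass (edgeR adjusted p = 0.869), and it ran from -0.97 without syringin library 1 to 0.59 without PBS library 1. The 3 libraries with the most Prph were syringin libraries 1 and 3 and PBS library 1. The same 3 had the highest sums of the sensory ganglion markers (142 to 346 CPM, against 29.5 to 78.0 CPM in the rest). The defining ganglion channel gene Scn10a had 3558, 0 and 818 counts in syringin libraries 1, 2 and 3 and 3429, 15 and 0 counts in PBS libraries 1, 2 and 3. With the mean of the ganglion markers as a covariate, the log2 fold change of Prph was -0.66 ± 0.21 and still missed the threshold (unadjusted p = 0.0166, edgeR adjusted p = 0.0915). The log2 ratio of Prph to Nefl averaged -2.48 ± 0.97 after syringin and -3.25 ± 0.90 after PBS (SD, n = 3 each; exact permutation p = 0.4, adjusted p = 0.467 over 7 ratios), so a difference between both genes was not shown. In the libraries with few ganglion transcripts, Prph stood at 18.4 CPM in syringin library 2 and at 28.4 and 44.4 CPM in PBS libraries 2 and 3. In those with many it stood at 96.0 and 50.1 CPM in syringin libraries 1 and 3 and at 128 CPM in PBS library 1.

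**Figure D2:**
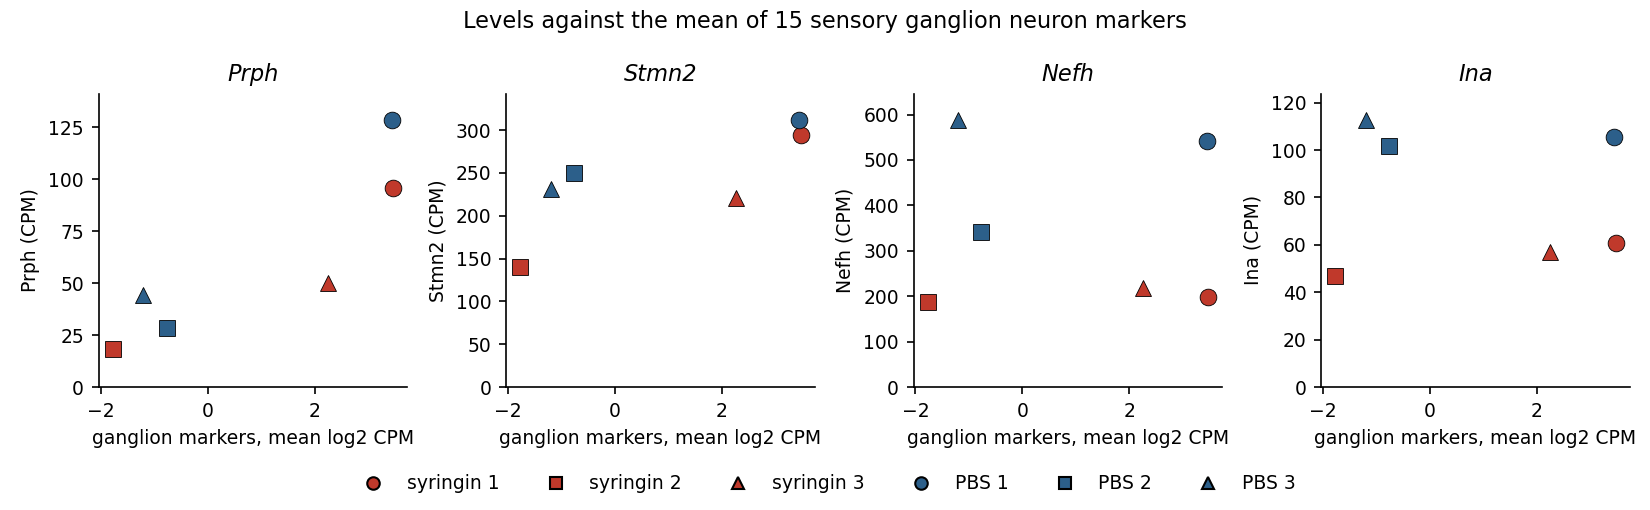
CPM of Prph, Stmn2, Nefh and Ina (y axes from 0) against the mean log2 CPM of 15 sensory ganglion neuron markers (x axis), with 1 point per library, red for syringin and blue for PBS. Prph and Stmn2 are highest in syringin library 1 and PBS library 1, at the right of the plot, while for Nefh and Ina the syringin points lie below the PBS points on both sides.

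Among the libraries with many ganglion transcripts and among those with few, 8 of the 10 genes had every syringin value below every PBS value: the 5 called lower and also Prph, Map1b and Stmn2. Syringin library 2, set against the mean of PBS libraries 2 and 3, had a log2 ratio of -1.32 for Nefl, -1.06 for Nefm, -1.31 for Nefh, -1.19 for Ina and -0.82 for Map2, and of -0.98 for Prph, -0.64 for Map1b and -0.78 for Stmn2. The mean of syringin libraries 1 and 3, set against PBS library 1, gave -1.09 for Nefl, -0.87 for Nefm, -1.38 for Nefh, -0.84 for Ina and -0.67 for Map2, and -0.81 for Prph, -0.59 for Map1b and -0.28 for Stmn2. Without overlap, Mapt (-0.32 and 0.17) was lower after syringin among the libraries with few such transcripts and higher among those with many. Gap43 (-0.10 and 0.28) interleaved among the libraries with few, and was higher after syringin without overlap among those with many. With 1 library on 1 side of each of these comparisons, no test was made, and values separate easily. The share of all genes tested that separate in this way was not counted, so the 8 of 10 has no background beside it. Prph, Map1b and Stmn2 did not pass the test over all 6 libraries.

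Levels of different genes were compared on FPKM, fragments scaled by transcript length and library size, which the authors deposited beside the counts. In the syringin group Nefl had the highest mean of the 10 genes, 115 ± 23.6 FPKM, followed by Gap43 at 84.2 ± 18.5, Nefm at 70.9 ± 12.8 and Nefh at 46.1 ± 3.65 FPKM (SD, n = 3). In the PBS group the 3 neurofilament subunits led, with Nefl at 244 ± 47.0, Nefm at 133 ± 14.8 and Nefh at 114 ± 30.5 FPKM, and Gap43 came after them at 74.1 ± 14.3 FPKM. Ranges of neighbours in this order overlapped in many cases: Gap43 spanned 64.9 to 102 FPKM after syringin, across the upper values of Nefm (59.6 to 84.9) and the lowest of Nefl (88.2 to 131). Below these stood Stmn2, Map1b, Mapt, Prph, Map2 and Ina in the syringin group, from 35.8 ± 13.4 to 15.5 ± 2.35 FPKM, and Stmn2, Map1b, Prph, Ina, Map2 and Mapt in the PBS group, from 43.8 ± 7.03 to 27.9 ± 3.19 FPKM.

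The proportions of the filament subunits to each other showed no difference that could be told from the spread between libraries. In the summed FPKM of the 5 filament genes, Nefl took 39.4%, 41.8% and 45.7% in the syringin libraries and 43.6%, 44.5% and 44.4% in the PBS libraries. The share of Nefh was 14.6%, 19.97% and 17.2% after syringin and 19.9%, 18.6% and 23.0% after PBS, a difference in means of -3.24 percentage points (two-sided exact permutation test over samples, p = 0.3). Nefm took 23.8% to 28.2% after syringin and 22.3% to 27.1% after PBS (exact p = 0.4). Within a library, the log2 ratio of Nefh to Nefl averaged -1.30 ± 0.21 after syringin and -1.12 ± 0.15 after PBS (SD, n = 3 each; exact permutation p = 0.3, adjusted p = 0.467 over 7 ratios). The ratio of Ina to Nefl averaged -2.88 ± 0.15 and -2.98 ± 0.25 on the same scale in the syringin and PBS groups (exact p = 0.7). With 3 libraries against 3, the smallest p that this test can give is 0.1. Prph moved most between libraries, with 14.0%, 3.90% and 7.87% of the sum in the syringin group and 9.43%, 3.08% and 3.46% in the PBS group.

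**Figure D3:**
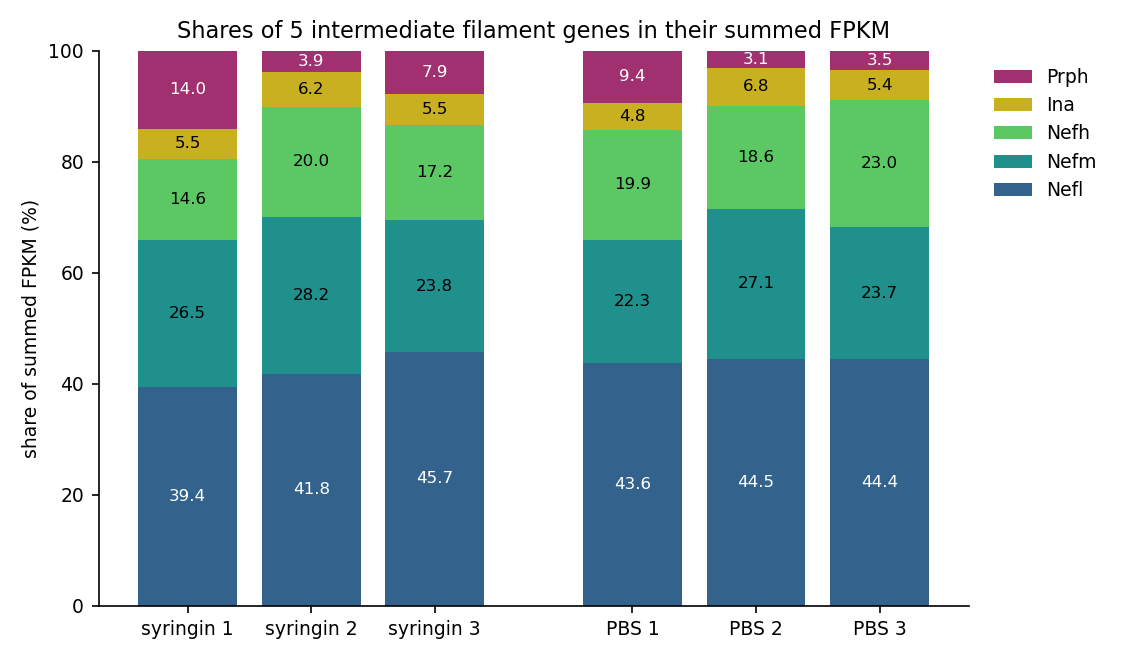
Stacked bars give the share (%) of Nefl, Nefm, Nefh, Ina and Prph in their summed FPKM, for the 3 syringin libraries at the left and the 3 PBS libraries at the right. Nefl takes 39.4% to 45.7% in every library, and the share of Prph is highest in syringin library 1 and PBS library 1.

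Among the microtubule-associated proteins, Map2 was lower and Mapt was not. Map2 had 347, 284 and 304 CPM in the syringin libraries and 516, 464 and 539.7 CPM in the PBS libraries, with a clear gap between the groups. Its log2 fold change was -0.70 ± 0.11 (edgeR adjusted p = 0.0197). Mapt, the tau gene, had 204, 193 and 242 CPM after syringin and 198, 233 and 248 CPM after PBS. These values interleaved, and the log2 fold change was -0.09 ± 0.12 (edgeR adjusted p = 0.724). The ratio of Map2 to Mapt, formed within each library and so free of library scaling, was 0.779, 0.674 and 0.573 in the syringin libraries and 1.20, 0.910 and 0.994 in the PBS libraries on FPKM. Every syringin library lay below every PBS library. The log2 ratio differed by -0.62, with the smallest p the design allows (two-sided exact permutation p = 0.1, adjusted p = 0.467 over 7 ratios), so the difference between both genes did not pass a threshold of 0.05.

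Map1b had 644, 392.1 and 451 CPM in the syringin libraries and 822, 569 and 653 CPM in the PBS libraries. Syringin library 1 lay above PBS library 2, so the groups overlapped, and the log2 fold change of -0.46 ± 0.21 did not pass (edgeR adjusted p = 0.229). Without syringin library 1 the value was -0.70 and passed (edgeR adjusted p = 0.0461). Map1b has the longest transcript of the 10, 11808 bases in GENCODE M21, and when each library was corrected for length and GC content of transcripts its value was -0.24. Nefl, Nefm, Nefh, Ina and Map2 were called under that correction too (5 of 10, beside 2.73% of all genes called lower). With the mean of the ganglion markers as a covariate 6 of 10 were called, Map1b among them, beside 6.57%. Prph and Stmn2 missed the threshold in that fit, at -0.66 and -0.45 (edgeR adjusted p = 0.0915 and 0.0559).

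Neither gene of axon growth passed the test. Gap43 had 165, 110.3 and 144 CPM after syringin and 128, 142 and 95.4 CPM after PBS, and was the one gene of the 10 with a positive log2 fold change, 0.20 ± 0.18 (edgeR adjusted p = 0.562). Its highest value was in syringin library 1 and its lowest in PBS library 3, with the rest interleaved. With 1 library left out its value lay between 0.06 (without syringin library 1 or without PBS library 3) and 0.35 (without syringin library 2). Stmn2 had 294, 140.4 and 221 CPM after syringin and 312, 250.3 and 231 CPM after PBS, a log2 fold change of -0.28 ± 0.25 (edgeR adjusted p = 0.556). With 1 library left out it lay between -0.55 (without syringin library 1) and -0.04 (without syringin library 2), at -0.14 without PBS library 1 and -0.36 without PBS library 3. With the ganglion covariate it was -0.45 ± 0.12. The log2 ratio of Gap43 to Stmn2 averaged 1.28 ± 0.24 after syringin and 0.75 ± 0.26 after PBS (SD, n = 3 each), with overlapping groups (exact permutation p = 0.2, adjusted p = 0.467 over 7 ratios).

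**Figure D4:**
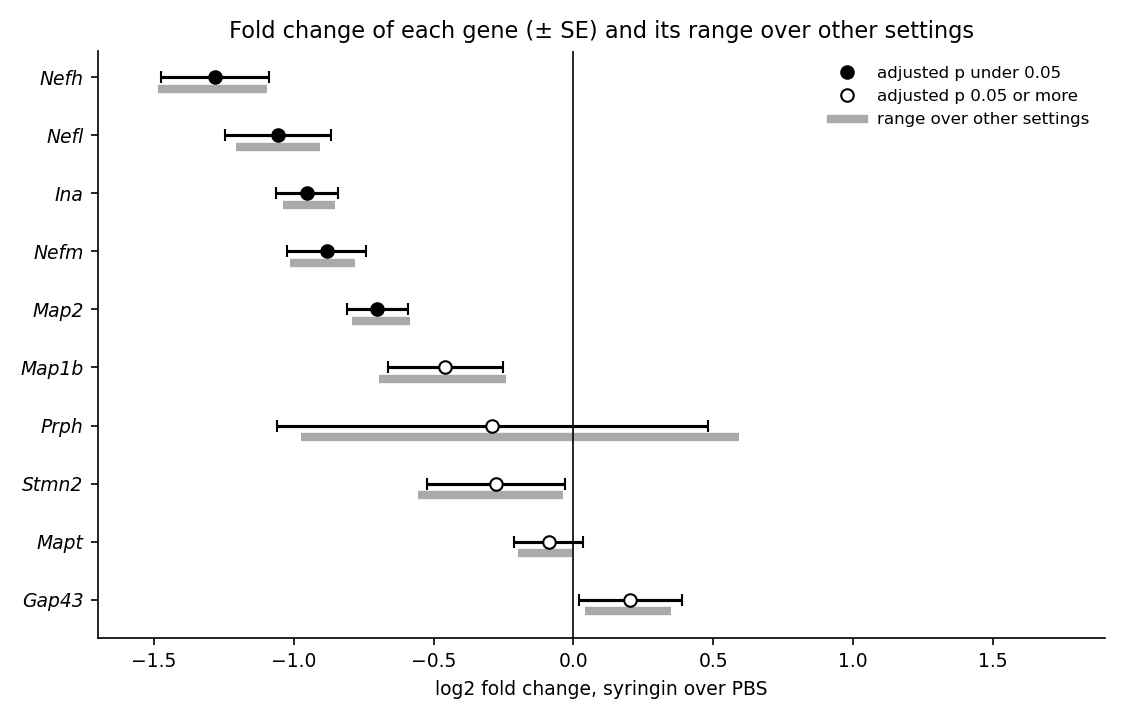
Log2 fold change of each gene, syringin over PBS (x axis), with its standard error; filled points passed an adjusted p of 0.05 in edgeR, and grey bars give the range over 21 other settings. Nefh, Nefl, Ina, Nefm and Map2 lie at -0.70 or lower, and Prph has the widest error and the widest range, from -0.97 to 0.59.

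Promoter sequences were available for 4 of the 10 genes (RefSeq, GRCm38.p6; 250 bases before to 50 after the start). Those of Ina and Map2, which moved together (both called lower), are shown beside that of Prph, which did not pass. Capitals mark matches on either strand to the TATA box TATAAA, the CCAAT box CCAAT, the GC box GGGCGG and the E-box CACGTG, none of which overlap each other here.
Ina, chr19:47014431-47014730, plus strand: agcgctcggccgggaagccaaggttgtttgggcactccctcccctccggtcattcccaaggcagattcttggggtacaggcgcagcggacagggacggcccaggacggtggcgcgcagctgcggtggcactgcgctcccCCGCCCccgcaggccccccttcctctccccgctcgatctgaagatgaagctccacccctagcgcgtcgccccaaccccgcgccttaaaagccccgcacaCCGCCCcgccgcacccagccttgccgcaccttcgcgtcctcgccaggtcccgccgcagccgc
Map2, chr1:66175079-66175378, plus strand: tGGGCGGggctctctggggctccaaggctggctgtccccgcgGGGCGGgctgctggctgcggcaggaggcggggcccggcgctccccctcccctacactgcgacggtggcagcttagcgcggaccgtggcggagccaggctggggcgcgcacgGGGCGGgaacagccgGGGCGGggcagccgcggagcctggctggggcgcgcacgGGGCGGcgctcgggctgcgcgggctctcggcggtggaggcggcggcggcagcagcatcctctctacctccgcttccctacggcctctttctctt
Prph, chr15:99054924-99055223, plus strand: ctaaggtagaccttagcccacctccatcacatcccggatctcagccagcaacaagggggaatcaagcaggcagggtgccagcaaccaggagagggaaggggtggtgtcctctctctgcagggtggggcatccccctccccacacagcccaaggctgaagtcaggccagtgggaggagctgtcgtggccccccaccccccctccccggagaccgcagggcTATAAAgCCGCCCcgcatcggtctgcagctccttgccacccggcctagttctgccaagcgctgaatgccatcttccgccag
The promoters of Ina and Map2 held 2 and 5 GC boxes and no exact TATAAA. Near matches were not searched for. That of Prph held 1 GC box at position -24 and a TATA box at -31, counted from the start, and that of Map1b held 2 GC boxes and a TATA box at -99. Of 32851 promoters of the same length, 35.7% held a GC box and 13.6% a TATA box. GC content was 71.7% for Ina, 77.7% for Map2 and 64.7% for Prph, against a median of 52.7% over all promoters. A match is a run of letters and not a shown binding site.

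Other cytoskeletal genes of axons were mixed. Of 30 such genes, 6 fell, none rose and 24 did not pass (median log2 fold change -0.16), beside 3.39% of all genes tested that were called lower. The kinesin heavy chains Kif5a and Kif5c, the motors that carry neurofilaments and other cargo along axons, fell by log2 values of -0.91 ± 0.20 and -0.84 ± 0.16 (edgeR adjusted p = 0.043 and 0.0316). Kif5a had 727, 442 and 476 CPM after syringin and 1147, 899.9 and 1040.1 CPM after PBS. The membrane skeleton genes Sptbn4 (beta-IV spectrin) and Ank2 (ankyrin-B) fell by -0.73 ± 0.15 and -0.52 ± 0.11, the tubulin gene Tuba4a by -0.67 ± 0.14, and Map1a, a microtubule-associated protein of mature neurons, by -0.62 ± 0.14. The other 5 tubulin genes of that list did not pass: Tubb3 had -0.11 ± 0.26, Tubb2a 0.03 ± 0.19, Tubb2b 0.15 ± 0.18, Tubb4a 0.14 ± 0.16 and Tuba1a 0.31 ± 0.14 (edgeR adjusted p between 0.218 for Tuba1a and 0.955 for Tubb2a).

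Intermediate filament genes of other cells were not called lower. Of 9 tested, Vim, the filament gene of reactive glia, macrophages and other non-neuronal cells, rose and none fell (median log2 fold change 0.40), beside 1.62% of all genes tested that were called higher. Vim had 3077, 3320 and 3831 CPM after syringin and 2161, 2422 and 1728 CPM after PBS (0.70 ± 0.16, edgeR adjusted p = 0.047). The lamin genes Lmna and Lmnb1 of the nuclear envelope had values of 0.68 ± 0.16 and 0.65 ± 0.15 and missed the threshold (edgeR adjusted p = 0.0566 and 0.0525). Gfap, the 1 gene of this list with a negative value, had 3341, 4240 and 4676 CPM after syringin and 4530, 5668 and 4811 CPM after PBS. Its groups overlapped and it did not pass (-0.29 ± 0.16, edgeR adjusted p = 0.326). Krt18 did not pass the filter on low counts.

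A list of 20 genes held kinases, proteases and ubiquitin ligases of neurofilaments and tau, with related genes. Not all of them act on these proteins directly, Cast, Sarm1 and Nmnat2 among those that do not. Of the 20 none rose (median -0.30). Called lower were 3 of 20, beside 3.39% of all genes tested. They were Cdk5r1, the p35 activator of the neurofilament and tau kinase Cdk5 (-0.73 ± 0.15), Mapk10, the neuronal Jun kinase JNK3 (-0.74 ± 0.12), and Ppp2r2b, a brain regulatory subunit of phosphatase 2A (-0.71 ± 0.14; edgeR adjusted p = 0.04, 0.0228 and 0.0369). Cdk5 itself did not pass, at -0.19 ± 0.10 (edgeR adjusted p = 0.306). Capn1 and Capn2, the calpain proteases that cut neurofilaments after injury, had values of -0.02 ± 0.10 and 0.07 ± 0.11 (edgeR adjusted p = 0.932 and 0.761).

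Of 19 genes known for their induction after axon injury, 3 rose, none fell and 16 did not pass (median 0.46). Among all genes tested 1.62% were called higher. The transcription factor genes Jun and Atf3 rose by log2 values of 0.55 ± 0.09 and 0.80 ± 0.17 (edgeR adjusted p = 0.0216 and 0.0414). Atf3 had 48.4, 57.9 and 62.5 CPM after syringin and 28.2, 40.8 and 28.0 CPM after PBS. The tubulin gene Tubb6 had 175, 173 and 192 CPM after syringin and 104, 106 and 95.2 CPM after PBS (0.82 ± 0.09, edgeR adjusted p = 0.0114). Macrophages and other non-neuronal cells express Jun, Atf3 and Tubb6 too. The macrophage markers of the same libraries were higher, and their part in these values was not tested. The more neuron-restricted Sprr1a and Gal had values of 0.65 ± 0.35 and 0.45 ± 0.32 and did not pass (edgeR adjusted p = 0.313 and 0.443). Npy and Sox11, at 0.46 ± 0.14 and 0.40 ± 0.17, did not pass either. Vip, at -0.92 ± 0.56, had the 1 negative value of the list and did not pass.

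**Figure D5:**
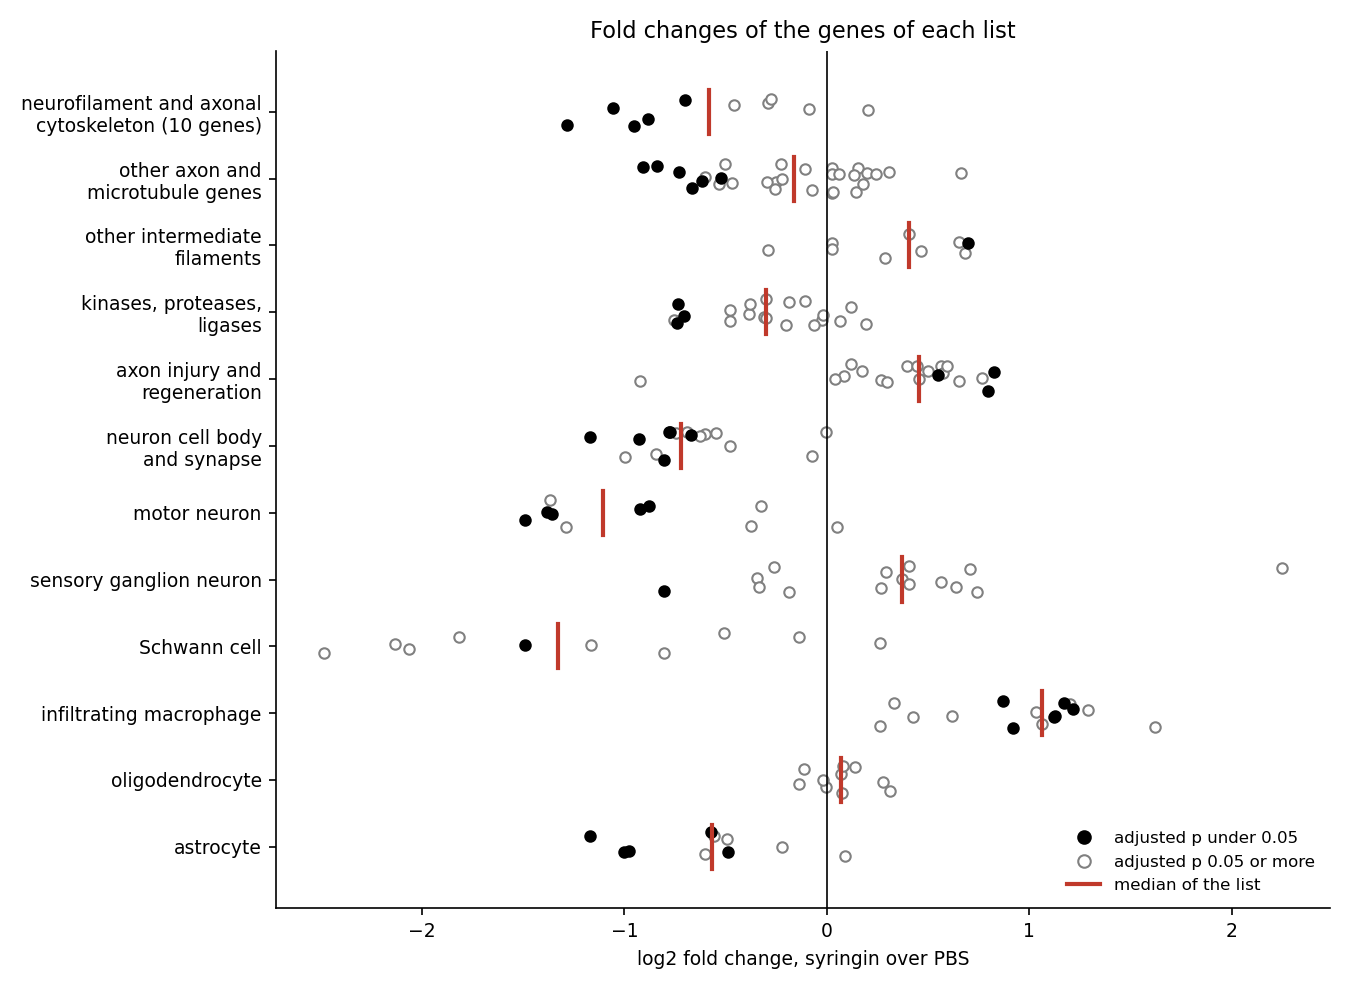
Log2 fold change, syringin over PBS (x axis), of each tested gene of the 10 described here and of 11 other lists; filled points passed an adjusted p of 0.05 and red lines are list medians. Medians lie below 0 for the 10 genes (-0.58) and for neuron (-0.72) and motor neuron markers (-1.11), and above 0 for infiltrating macrophage markers (1.06).

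Markers of neuronal cell bodies and synapses were lower in the same libraries. Of 16, 6 fell, beside 3.39% of all genes tested, and none rose. All 16 fold changes were negative (median log2 fold change -0.72). Slc32a1, the vesicular transporter of inhibitory neurons, changed by -1.17 ± 0.13, Thy1 by -0.67 ± 0.10 and the synapsin gene Syn1 by -0.78 ± 0.13 (edgeR adjusted p = 0.0114, 0.0188 and 0.023), and Snap25, Syp and Eno2 also fell. The neuronal RNA-binding gene Elavl3 and Uchl1 did not pass, at -0.08 ± 0.09 and -0.01 ± 0.23. The size of the difference between the neurofilament genes and these markers varied with how the list was summarised. The mean log2 CPM of Nefl, Nefm and Nefh exceeded that of the 16 neuron markers by 1.63, 2.02 and 1.84 in the syringin libraries and by 2.25, 1.95 and 2.36 in the PBS libraries. Syringin library 2 lay above PBS library 2, and the difference of -0.36 had a two-sided exact permutation p of 0.2. With the median of the list in place of its mean, the excess was 1.82 ± 0.12 after syringin and 2.34 ± 0.27 after PBS (SD, n = 3 each). The groups then did not overlap, and the difference of -0.52 had the smallest p the design allows (exact permutation p = 0.1). Between Nefh and Rbfox3, the nuclear marker of mature neurons, the log2 CPM difference was 2.75 ± 0.44 after syringin and 2.97 ± 0.28 after PBS (SD, n = 3 each; exact permutation p = 0.5).

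Motor neurons, whose large axons are rich in neurofilaments, had lower marker levels too. Motor neuron genes fell in 5 of 10 cases, beside 3.39% of all genes tested, and rose in none (median -1.11). Among those that fell were Slc5a7 and Slc18a3, which import choline and load acetylcholine into vesicles, and Chat, which makes acetylcholine. Chat had 3.1, 3.5 and 3.5 CPM after syringin and 10.4, 7.4 and 10.8 CPM after PBS (-1.49 ± 0.20, edgeR adjusted p = 0.0142). Ache and Slit3 fell as well. The 10 motor neuron markers summed to 237, 162 and 198 CPM in the syringin libraries and 315, 298 and 305 CPM in the PBS libraries. Ret was the largest part of these sums, with 138, 67.4 and 99.2 CPM after syringin and 134, 130 and 118 CPM after PBS. It did not pass (edgeR adjusted p = 0.437), nor did Mnx1, Chodl, Isl1 and Mmp9, with log2 fold changes of -1.37, -1.29, -0.37 and 0.05. How far the values of Nefh, Nefm and Nefl share their source with these markers was not tested.

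Some markers of other cell types also differed between the groups. Of 15 markers of infiltrating macrophages 6 rose, beside 1.62% of all genes tested, and none fell. Their summed level was 8697, 22705 and 13755 CPM after syringin and 6221, 7571 and 7672 CPM after PBS. Msr1, Clec4d and Lgals3 changed by 0.92 ± 0.13, 1.12 ± 0.14 and 1.13 ± 0.18, and Arg1, Cd36 and Thbs1 rose too. The sum was highest in syringin library 2, where Spp1, Lyz2 and Gpnmb made up most of it (10262, 3673 and 2702 CPM). The mean centred log2 CPM of the 15 markers was also highest there, at 0.94 against 0.01 and 0.37 in syringin libraries 1 and 3. Arg1 went the other way, with 443, 343 and 375 CPM in syringin libraries 1, 2 and 3. Each of the 10 genes described here had its lowest level of the syringin group in syringin library 2. Of 10 astrocyte markers 5 fell, beside 3.39% of all genes tested. Slc1a2, Gjb6 and Gpc5 had values of -1.0 ± 0.13, -1.17 ± 0.19 and -0.98 ± 0.17, and Mlc1 and Fgfr3 were also lower. Schwann cells, the myelinating cells of nerve roots, had markers that summed to 886, 1167 and 1065 CPM after syringin and 1223, 2826 and 2250.4 CPM after PBS. These sums include Mal, which is also among the oligodendrocyte markers and did not pass. Mal had 378, 423 and 544 CPM after syringin and 456, 516 and 507 CPM after PBS. Of 10 Schwann cell markers Ncmap fell (-1.49 ± 0.24, edgeR adjusted p = 0.0209), so 1 of 10 was called lower, beside 3.39% of all genes tested. Pmp22 and Pmp2 had values of -1.16 ± 0.29 and -2.06 ± 0.54 and missed the threshold. No oligodendrocyte marker of 10 passed (6 positive, 4 negative, median 0.07), and those of smallest p, Cldn11, Mag and Mog, had 0.28 ± 0.11, 0.31 ± 0.16 and 0.14 ± 0.12. Of the 15 sensory ganglion markers Kcns3 alone passed (-0.80 ± 0.18), a potassium channel gene that other neurons also express, while 10 of the 15 had positive values (median 0.37). F2rl2 had a value of -0.34 ± 0.45. Mrgprx1, an itch receptor gene of these neurons, had 58, 0 and 18 counts after syringin and 15, 0 and 0 counts after PBS and did not pass (edgeR adjusted p = 0.448). Whether these shifts in cell markers account for any part of the neurofilament values was not tested.

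Over the 6 libraries the 5 genes called lower had closely similar profiles, with Pearson correlations of log2 CPM between 0.94 and 1.00 for every pair. High values among them are favoured from the start, because all 5 were called for separating the same groups of these libraries. Of the genes not called, Map1b correlated with the 5 at 0.74 to 0.86 and Stmn2 at 0.46 to 0.65. Prph had 0.32 to 0.47, Mapt 0.28 to 0.39 and Gap43 -0.51 to -0.28. These values are a description over 6 libraries that share the treatment contrast and the differences in cell content. Among 11219 other genes averaging at least 10 CPM, predicted gene models left out, those most like Nefh were Gpr155, Tmx2, Nlgn2, Rimkla and Ccdc85a (0.988 to 0.995). Those most like Prph were Kctd6, Mkrn2, Entrep3, Dlgap4 and Lss (0.989 to 0.993), and those most like Gap43 were Dnaja1, Spop, Nelfcd, Shroom3 and Mrpl40 (0.96 to 0.98). The measure says nothing of shared function or control.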

How the data were processed

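RNA sequencing of spinal cord from 3 syringin and 3 PBS mice was analysed from 1 deposited table. Per the labels' protocols, RNA was extracted with TRIzol and libraries made with a stranded TruSeq mRNA kit. The submitters' processing notes name HISAT2, StringTie and the builds GRCm38 and mm10. The authors deposited estimated counts and FPKM per gene and library; the estimated counts are whole numbers, so rounding changed nothing. No counting settings are given in the sources used here. Counts of 4 were 1.5 times as frequent as the mean of counts 3 and 5, so 1 fragment may add several counts and counting error may exceed what the totals imply. The smallest count of a member was 1177.

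Of 34804 gene IDs shared with GENCODE M21 only 717 have the same start in the deposited table, and none of the 10 members does, so positions are those of M21 (GRCm38), matched by gene ID.

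Counts were scaled by TMM, filtered with filterByExpr (minimum count 10, minimum total 15) and fitted with edgeR 4.0.16 (quasi-likelihood, robust) in R 4.3.3, on treatment alone. Calls were made at an adjusted p under 0.05 over all 22114 genes. Standard errors were obtained by dividing the size of the log2 fold change by the root of the F statistic. The common biological coefficient of variation was 24.9%. Log2 CPM used a prior count of 2. The test was tested on simulated data. No 2 libraries held identical counts, and replicates differed by more than counting noise. Ratios and shares on FPKM were compared by exact permutation over samples. Alternatives were other scalings, filters and tools (DESeq2 1.42.0, limma 3.58.1), a replicate block, a ganglion covariate, a length and GC correction (mgcv), and each library left out. The length and GC correction, and the DESeq2 and limma-voom fits that leave out PBS library 3, were added after the data were seen. Named genes were the members, the 3 genes of smallest p and any called gene of each list, and the 5 genes most like Nefh, Prph and Gap43; a few other list genes were named after their values were seen. The members and lists were chosen with earlier results of these data known.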

Additional observations from a re-analysis of the deposited data

How the results depend on the processing

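Leaving out 1 library moved the number of the 10 genes called lower between 0 and 6, and the number of genes called in the whole table between 0 and 1944. The count of 10 genes called lower was 3 without syringin library 2, 1 without syringin library 3, 1 without PBS library 1 and 0 without PBS library 3, where limma-voom also gave 0 (3532 genes at an unadjusted p under 0.05, against 3449 by edgeR) and DESeq2 gave 5. Limma-voom without PBS library 3 called 0 genes in the whole table. On all 6 libraries, DESeq2 called 3191 genes, the fit with the replicate number as a block 2557 and the fit with the ganglion covariate 2629, against 1108 in edgeR without them; the causes were not tested. No label says that the replicate numbers pair animals, so the main fit held no block. Deviations of same-numbered libraries correlated at 0.292, 0.123 and 0.0521, and those of differently numbered libraries at -0.229 to 0.135. These values do not settle whether the numbers pair animals. With the replicate block 6 of the 10 genes were called, Map1b being added. For ratios and shares the pairwise mean difference equals the unpaired one, -0.62 for Map2 to Mapt with the replicate block. The length and GC correction raised the share of higher genes among those called from 32.4% to 43.9%, and the 10 genes' calls were unchanged under it. The sign of the fold change was the same under all 21 alternatives for 9 of the 10 genes, Prph being the exception. For the 5 genes whose groups do not overlap, leaving out a library cannot turn the sign. At these depths counting error is small for the 10 genes, and the number of animals limits precision.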

Other observations

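Growth-associated membrane proteins related to GAP-43 in function did not fall. Basp1 had 168, 151 and 171 CPM after syringin and 137, 143 and 147 CPM after PBS, and Marcksl1 had 111.0, 137 and 169 CPM after syringin and 70.2, 104 and 89.8 CPM after PBS. Both had every syringin library above every PBS library, as did 14.7% of all genes tested, and neither passed (edgeR adjusted p = 0.211 and 0.0823).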
